A study of Rattus norvegicus with 4 samples.

Results

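The extracellular matrix genes of the rat hippocampus were followed here as 41 genes on 48 probes, out of 8899 genes with a symbol and 41012 probes on the array. Members were the genes with a symbol starting with Col, Lama, Lamb, Lamc, Mmp, Timp or Adamts and a digit, together with 18 proteoglycans, link proteins and other matrix genes listed by name, of which 13 had a named probe. The listed genes without a named probe were Vcan, Hapln4, Tnc, Hspg2 and Nid1, and they are not analysed here. The members comprised 5 genes of the perineuronal net and the brain proteoglycans, 3 matricellular and fibronectin genes, 3 small leucine-rich proteoglycans, 6 fibrillar collagens and 1 other collagen, 3 basement membrane genes, 13 matrix metalloproteinases, 3 metalloproteinase inhibitors, 3 ADAMTS proteases and the plasminogen activator Plat.

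The animals were male Wistar rats aged 10 weeks at allocation. The sedentary group (Sed) of 10 rats lived in standard cages, the wheel running group (WR) of 8 rats ran voluntarily without resistance, and the resistance wheel running group (RWR) of 8 rats ran against a load that started at 4.5 g in the first week and reached 30% of body weight, with 4 weeks of exercise in both running groups. Hippocampal RNA was pooled within a group, from a number of rats that the sources used here do not make clear, and 1 pool per group was hybridized in 2 colours. Chip 1 carried WR in Cy5 and Sed in Cy3, chip 2 carried the same pools with the dyes swapped, chip 3 carried RWR in Cy5 and Sed in Cy3, and chip 4 was its dye swap. The chips of a pair repeat the same pools, so a comparison rests on 1 biological replicate, the conditions could not be tested against each other, and every p-value or error below describes the measurement on a chip and not the spread between rats. In pooled tissue, fewer cells of a type and less RNA per cell cannot be told apart.

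In the adult brain, the extracellular matrix is built mainly from hyaluronan, chondroitin sulphate proteoglycans of the lectican family (aggrecan, brevican, neurocan), link proteins and tenascins, which condense into perineuronal nets around certain neurons. Collagens, decorin and lumican are largely made by fibroblasts of the meninges and vessel walls, and laminins, type IV collagen and agrin form the basement membrane of blood vessels. Matrix metalloproteinases and ADAMTS proteases cut these components, TIMPs hold the metalloproteinases in check, and tissue plasminogen activator starts the plasmin cascade that also acts on the matrix. The pooled tissue carried markers of neurons and astrocytes. All 6 listed neuron markers with a named probe (Snap25, Syt1, Slc17a7, Gad1, Wfs1 and Camk2a) and all 9 astrocyte markers were well above background on every chip. The listed Rbfox3, Neurod6, Prox1 and Zbtb20 had no named probe, and no other brain region was measured for comparison.

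Several of the proteases are encoded side by side, and 5 of the 13 metalloproteinases measured (Mmp12, Mmp3, Mmp10, Mmp8 and Mmp7, in this order) start within a single cluster on chromosome 8. The promoters are shown because these 5 genes were also the hardest to detect in the hippocampus. In the RefSeq promoter table of the GRCr8 assembly, 29 of the 41 members had an entry, and the 250 bases before the annotated start were searched on both strands for 4 short motifs, which were TATAAA (the TATA box), CCAAT (the CCAAT box), GGGCGG (the GC box) and TGAGTCA (the AP-1 site). The last 100 bases before the start are given 5′ to 3′ for the 4 cluster genes that held an AP-1 match, with every match to one of the 4 motifs in capitals. The windows lie on the plus strand at chr8:12925181-12925280 (Mmp3), chr8:13132943-13133042 (Mmp7), chr8:12974607-12974706 (Mmp10) and chr8:12866552-12866651 (Mmp12).
Mmp3: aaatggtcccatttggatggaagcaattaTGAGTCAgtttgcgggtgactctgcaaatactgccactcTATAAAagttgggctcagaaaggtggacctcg
Mmp7: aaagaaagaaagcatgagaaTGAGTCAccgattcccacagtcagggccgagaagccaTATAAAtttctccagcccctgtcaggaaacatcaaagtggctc
Mmp10: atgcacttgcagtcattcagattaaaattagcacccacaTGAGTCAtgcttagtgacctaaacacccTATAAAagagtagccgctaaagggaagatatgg
Mmp12: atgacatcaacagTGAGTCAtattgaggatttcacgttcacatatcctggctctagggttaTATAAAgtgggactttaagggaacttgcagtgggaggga

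Each of these 4 windows held 1 AP-1 match followed by 1 TATAAA match. Among the 29 members with an entry, these were the only 4 with an AP-1 match (13.8%), against 4.05% of the 33469 promoters in the table. All 4 are neighbours in a single cluster, so the share describes that cluster and not the matrix genes as a group. The letters TATAAA occurred in 9 of the 29 members (31.0%, against 12.9% of all promoters), CCAAT in 9 (31.0%, against 34.0%) and the GC box in 15 (51.7%, against 30.5%). The 9 with TATAAA were all 5 genes of the cluster with Adamts1, Adamts7, Col1a2 and Ncan. The promoter of Mmp8, in the same cluster, held a TATAAA and a CCAAT match and no AP-1 match. Windows that hold GC or CCAAT box matches are also shown for Acan (aggrecan) and Ncan (neurocan), the only members above background and above 0 on all 4 chips, and for Col1a2, a fibrillar collagen whose ratio changed side between the comparisons. How many of all probes were above 0 on all 4 chips was not counted. The windows were chosen for their matches and do not lie at the same distance from the start, with the last 100 bases before it for Acan, the first 100 of the 250 bases searched for Ncan and the first 120 for Col1a2. The promoter of Ncan also held a TATAAA match outside the window printed. The windows are chr1:142390851-142390950 for Acan, chr16:19335657-19335756 for Ncan and chr4:33518307-33518426 for Col1a2, all on the plus strand.
Acan: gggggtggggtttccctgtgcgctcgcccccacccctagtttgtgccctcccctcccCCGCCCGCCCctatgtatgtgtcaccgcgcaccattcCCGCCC
Ncan: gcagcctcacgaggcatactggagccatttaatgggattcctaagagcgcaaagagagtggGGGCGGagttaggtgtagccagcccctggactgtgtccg
Col1a2: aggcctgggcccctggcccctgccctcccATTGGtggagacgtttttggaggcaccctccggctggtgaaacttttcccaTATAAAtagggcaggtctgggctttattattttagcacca

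The Acan window was 71.0% G and C with 3 GC box matches, some of them overlapping, and the Ncan window was 58.0% G and C with 1. The Col1a2 window held the CCAAT letters, read on the other strand, and TATAAA. A match of letters is a description of the sequence and no measure of binding.

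No matrix gene was called in either form of running. A probe was called when the ratio of running over sedentary was above 1.5 or below 0.75 on both chips of a pair with the deposited p-value of the chip under 0.01 on both. By this rule 0 of the 48 member probes were called in WR and 0 in RWR. Of all probes 0.0317% were called in WR (13 of 41008, with 0.00244% higher and 0.0293% lower) and 0.0585% in RWR (24 of 41007, with 0.00975% higher and 0.0488% lower). Without any p-value, 0 members passed the cutoffs on both chips in either comparison, with a background of 0.549% in WR and 1.48% in RWR. With the cutoffs on the mean of a pair and no p-value, 1 member probe passed in WR (Mmp12, background 6.54%) and 3 in RWR (Mmp7, Mmp10 and the dimmer probe of Col23a1, background 9.03%). When a p-value under 0.01 on at least 1 chip was also asked for, 0 passed in WR (background 1.88%) and 2 in RWR (Mmp7 and the dimmer probe of Col23a1, background 2.74%). Over the 41 genes, each by its brightest probe, the log2 ratios had a median of 0.03 in WR and of 0.01 in RWR, against 0.0016 and −0.0047 over all named genes.

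In WR 29 member genes, and in RWR 31, were well above background in each of the 4 measurements of the pair (Cy3 and Cy5 on either chip). Their mean log2 ratios ranged from −0.31 to 0.19 in WR and from −0.22 to 0.19 in RWR, and the median error of such a mean, propagated from the deposited errors, was 0.15 in both. By probes, 0 of 35 in WR and 0 of 37 in RWR lay more than 2 errors from 0, with a background of 0.581% and 0.869%. A total of 4 of the 35 probes were above 0 on both chips in WR and 6 were below, against 14.4% and 13.8% of all such probes. In RWR 11 of the 37 were above 0 on both chips and 3 were below, against 16.6% and 15.4%. The plot of ratios by chip shows how closely the brighter members gathered around 0.

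**Figure D1:**
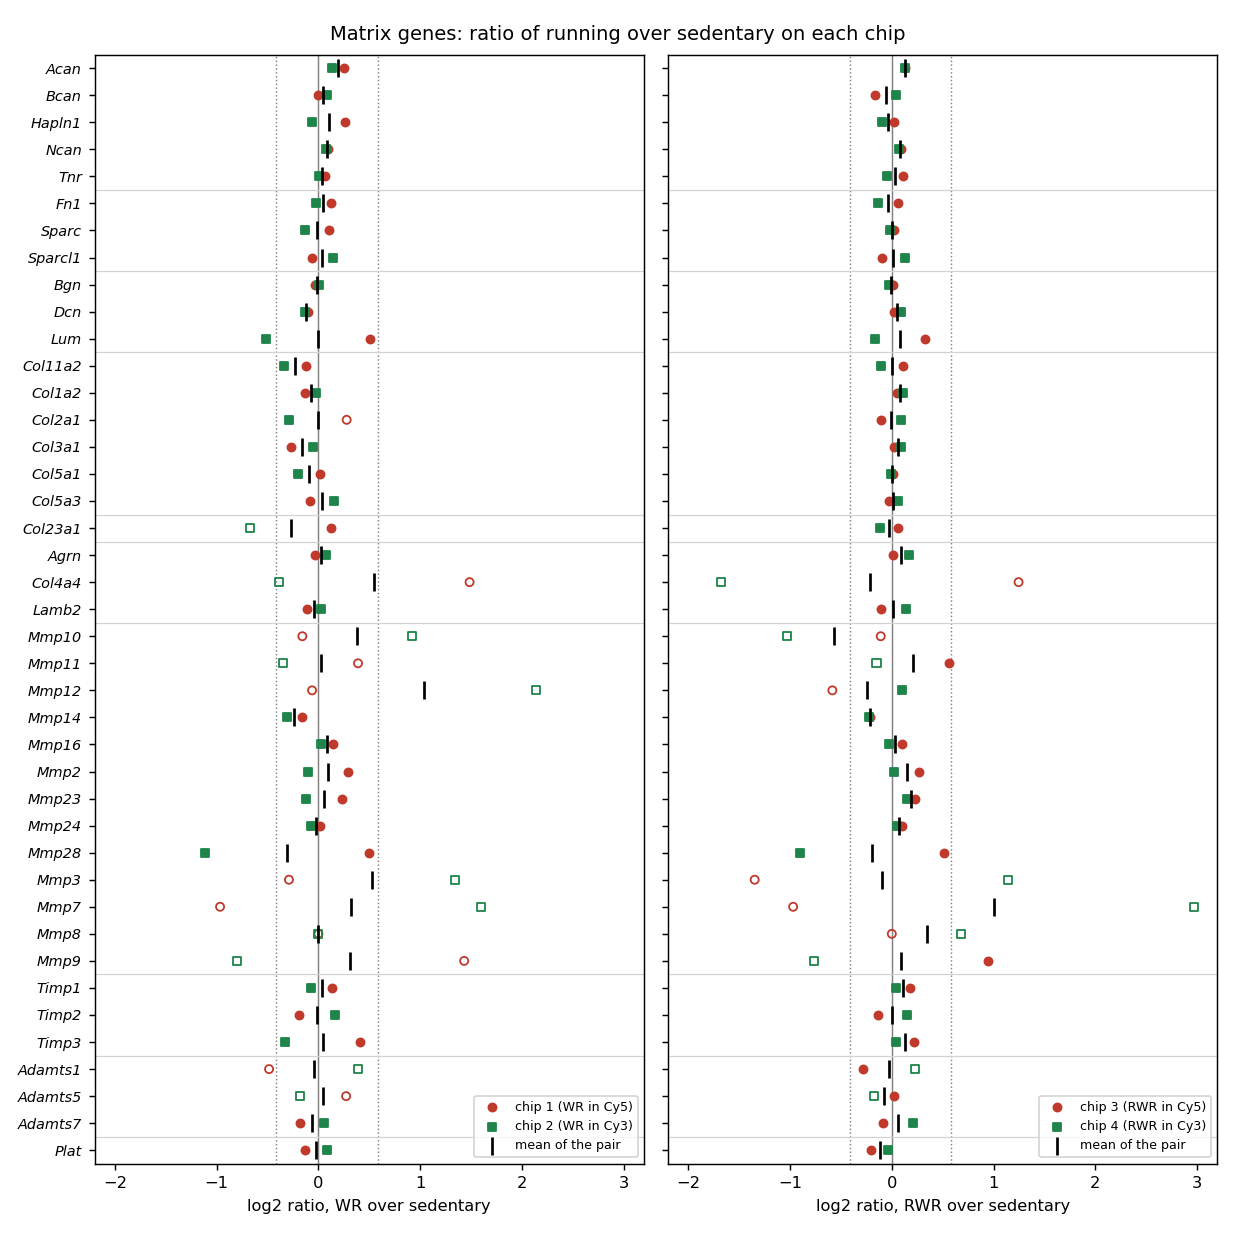
Log2 ratio of running over sedentary (x axis) of the brightest probe of each of the 41 matrix genes (y axis, in blocks by role) on the chips of the WR pair (left) and of the RWR pair (right). Red circles are the chip with running RNA in Cy5 and green squares the chip with it in Cy3, open symbols mark chips where either dye was not well above background, black bars are the mean of the pair, and dotted lines mark ratios of 1.5 and 0.75. Wide gaps between the chips of a pair are seen in dim members such as Mmp7, whose ratios in RWR were −0.97 and 2.97, and Col4a4, with 1.25 and −1.68.

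The 5 genes measured among the lecticans and their partners in the perineuronal net were well above background. At their brightest probe they stayed close to the sedentary level. Vcan, Hapln4 and Tnc of this group had no named probe. Acan, the large proteoglycan that defines perineuronal nets, gave processed signals of 48.9 in WR and 41.0 in Sed on chip 1, 37.6 and 34.3 on chip 2, 37.1 in RWR and 34.0 in Sed on chip 3 and 33.4 and 30.6 on chip 4. Its log2 ratios were 0.25, 0.13, 0.13 and 0.13 on chips 1 to 4, so it was above the sedentary pool on all 4 chips. Its mean was 0.19 ± 0.20 (error of the mean on the chips) in WR and 0.13 ± 0.20 in RWR, within the error. Without background correction these means were 0.08 and 0.07. Acan was a dim probe, with signals below the median signals of the chips (62.2 to 78.3).

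Ncan, a lectican of the diffuse brain matrix, gave nearly the same value on every chip. Its log2 ratios were 0.09, 0.07, 0.09 and 0.07, with means of 0.08 ± 0.15 in WR and 0.08 ± 0.15 in RWR. The RWR mean was 0.04 under normexp and 0.05 with no background subtracted. Tnr, the tenascin that cross-links lecticans, had ratios of 0.07, 0.01, 0.11 and −0.05. Hapln1, the link protein that fixes lecticans to hyaluronan, had 0.26 and −0.06 in WR and 0.02 and −0.10 in RWR. All of these ratios were within the error of the chip or close to it, and the deposited p-values of Acan, Ncan, Tnr and Hapln1 ranged from 0.21 to 0.98.

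Bcan, brevican, another lectican of the nets, was measured by a pair of probes that differed in RWR. The brighter probe gave −0.002 and 0.09 in WR and −0.16 and 0.04 in RWR. The dimmer gave −0.22 and 0.21 in WR and −0.54 and 0.05 in RWR, where the chip 3 value had a deposited p of 0.011 and chip 4 lay on the other side of 0. The means in RWR were −0.06 ± 0.14 and −0.25 ± 0.15, a gap of 0.18 between probes of the same gene.

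The matricellular genes were close to 0 in both comparisons. Sparcl1 (hevin, an astrocyte protein that promotes synapses) gave signals from 41185 to 73413 over the chips and dyes, and log2 ratios of −0.07, 0.14, −0.10 and 0.13. Sparc, its antagonist in synapse formation, had 0.10, −0.13, 0.02 and −0.01. The means of Sparcl1 were 0.04 in WR and 0.02 in RWR and those of Sparc were −0.01 and 0.00, each ± 0.14. In Sparcl1 the sign turned with the dye in both pairs.

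Fn1, fibronectin, the adhesive glycoprotein of plasma and vessel walls, had a probe with 10 spots per chip. The mean over its spots was 0.14 ± 0.05 (SD, n = 10 spots) on chip 1, −0.03 ± 0.03 on chip 2, 0.10 ± 0.04 on chip 3 and −0.07 ± 0.03 on chip 4. Thus 10 of 10 spots were above 0 with running RNA in Cy5 on chips 1 and 3, and 8 of 10 and 10 of 10 were below 0 with it in Cy3 on chips 2 and 4. The second, brighter probe gave 0.13, −0.03, 0.06 and −0.13, with means of 0.05 in WR and −0.04 in RWR.

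The collagens and decorin of fibroblasts were below the sedentary level on both WR chips and above it on both RWR chips in 3 genes, by amounts under 2 errors. Such a pattern was seen in 3 of the 35 member probes well above background on all 4 chips (8.57%), beside 4.62% of all such probes, and the sedentary pool is common to both comparisons. Dcn, decorin, which binds collagen fibrils, gave signals of 1065 in WR and 1146 in Sed on chip 1, 981 and 1072 on chip 2, 1225 in RWR and 1205 in Sed on chip 3 and 1005 and 946 on chip 4. Its log2 ratios were −0.11, −0.13, 0.02 and 0.09, with means of −0.12 ± 0.14 in WR and 0.06 ± 0.14 in RWR. Decorin was thus lower than sedentary on both WR chips and slightly higher on both RWR chips.

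Col1a2, a chain of type I collagen, had −0.13 and −0.02 in WR and 0.05 and 0.11 in RWR. Its second probe gave −0.16 and −0.03 in WR and −0.05 and 0.06 in RWR, on both sides of 0 in the latter. Col3a1, the type III collagen that accompanies type I in vessels and meninges, had −0.27 and −0.06 in WR and 0.02 and 0.09 in RWR. The means of Col3a1 were −0.16 ± 0.15 and 0.06 ± 0.15, and those of Col1a2 were −0.07 and 0.08. With normexp background correction the mean of Col3a1 was −0.07 in WR and 0.01 in RWR, and that of Col1a2 was −0.04 and 0.09.

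Col11a2, a minor fibrillar collagen, was below 0 on both WR chips and on both sides in RWR. It gave signals of 3856 in WR and 4193 in Sed on chip 1 and 3156 and 3993 on chip 2, and log2 ratios of −0.12 and −0.34 in WR and 0.11 and −0.10 in RWR. Its mean in WR was −0.23 ± 0.15, equal to a fold of 0.853, and its mean in RWR was 0.00 ± 0.14. The 6 fibrillar collagens had medians of −0.08 in WR and 0.01 in RWR on the log2 scale, with 3 genes below 0 on both WR chips, 2 above 0 on both RWR chips and 0 called.

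Lum and Bgn, the other small leucine-rich proteoglycans, had no common side. Lum, lumican, had 0.51 and −0.52 in WR and 0.33 and −0.17 in RWR, with opposite signs on the chips of each pair. Bgn, biglycan, had −0.03, 0.01, 0.01 and −0.03 at signals from 2180 to 2561, so its sign had no steady relation to the pool or the dye. Col23a1, a transmembrane collagen, gave 0.13 and −0.67 in WR and 0.06 and −0.12 in RWR at its brighter probe. Its dimmer probe had 0.43 and −0.95 in WR and 0.34 and −1.18 in RWR. Both probes were thus higher where running RNA was in Cy5.

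The remaining fibrillar collagens gave no side that was kept over the chips. Col5a1, a chain of the type V collagen that starts fibrils, had 0.02, −0.20, 0.02 and −0.01 at its brighter probe, and 0.15, −0.17, −0.17 and −0.04 at the other. Col5a3, of the same collagen type, had −0.08, 0.15, −0.03 and 0.06. Col2a1, the collagen of cartilage, had 0.28, −0.29, −0.11 and 0.09 at a probe well above background in 7 of the 8 measurements, and −0.46, 0.72, −0.14 and 0.51 at its second. The probes of Col2a1 had opposite signs on chips 1 and 2.

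Markers of fibroblasts and choroid plexus are given beside these genes, since meninges and plexus can come along in a dissection. Of 11 listed markers of leptomeningeal and perivascular fibroblasts, 9 had a named probe and 6 were well above background on both WR chips and 7 on both RWR chips. Their summed signal was 3368 to 3573 in WR and 3560 to 3819 in Sed on chips 1 and 2, and 3549 to 4099 in RWR and 3510 to 4192 in Sed on chips 3 and 4. The median log2 ratio of those well above background was −0.08 in WR (6 genes) and −0.10 in RWR (7 genes), and the sums are carried mostly by Igf2, Mgp and Fmod. In WR and RWR the means were −0.14 and −0.04 for Igf2, −0.04 and 0.01 for Mgp and −0.09 and 0.06 for Fmod. Slc6a13 had −0.19 and −0.10, while Igfbp2 had −0.07 and −0.13 and Slc22a8 had 0.10 and −0.12. Among those well above background, 2 genes were below 0 on both WR chips and 1 above, and in RWR 0 were below and 1 above. Of 9 choroid plexus markers, 8 had a probe, and their summed signal was 1773 to 1946 in WR against 2154 to 2168 in Sed, and 2277 to 2605 in RWR against 2324 to 2490 in Sed. Among them Ttr, the transthyretin of the plexus, was called lower in WR, with a mean of −0.86, and had a mean of 0.12 in RWR. Folr1 had means of −0.21 and 0.06, and Enpp2 of −0.06 and −0.02. The median of the plexus markers well above background was −0.21 in WR (3 genes) and 0.09 in RWR (4 genes). Their sums are carried mostly by Enpp2 and Ttr. The part of these cells in the collagen and decorin values was not tested.

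**Figure D2:**
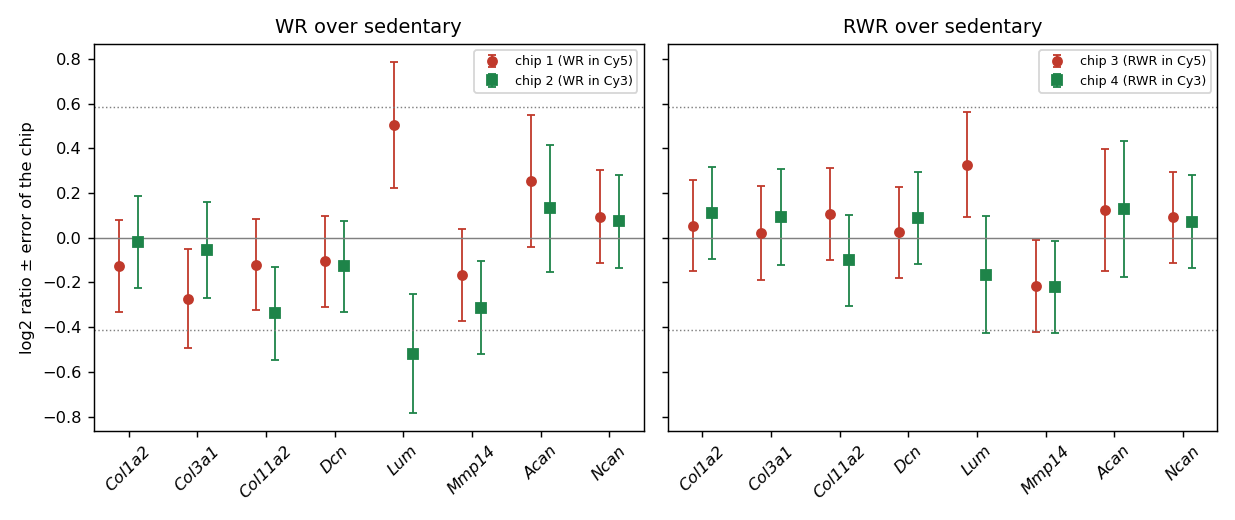
Log2 ratio of running over sedentary (y axis) of 8 members (x axis) on each chip of the WR pair (left) and the RWR pair (right), with bars for the deposited error of that chip. Dotted lines mark ratios of 1.5 and 0.75. Mmp14 lies below 0 on all 4 chips and Acan and Ncan above 0, while Col1a2, Col3a1 and Dcn lie below 0 on the WR chips and above 0 on the RWR chips, and most error bars cross 0.

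Of the basement membrane genes, Agrn and Lamb2 had ratios close to 0 and Col4a4 had wide ratios of opposite sign. Agrn, agrin, a heparan sulphate proteoglycan of vascular basement membranes and synapses, had −0.03 and 0.08 in WR and 0.01 and 0.16 in RWR, with a mean of 0.09 ± 0.14 in RWR. Lamb2, a laminin chain, had −0.11, 0.03, −0.11 and 0.14, changing sign with the dye. Col4a4, a chain of type IV collagen, was well above background in 4 of the 8 measurements (4 chips in both dyes) and gave 1.49, −0.39, 1.25 and −1.68. Its means were 0.55 ± 0.43 in WR and −0.22 ± 0.53 in RWR. Of the markers of the vessels that carry this membrane, 7 endothelial and 8 pericyte and smooth muscle genes had a probe. Over all of these the medians were 0.01 and 0.06 in WR and 0.02 and 0.06 in RWR. Over the 6 and 7 well above background they were −0.01 and 0.03 in WR and 0.05 and 0.06 in RWR.

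Among the proteases, Mmp14 was the only member that was well above background and below sedentary on all 4 chips. The share of all probes with this pattern was not counted. Mmp14 is a membrane-type metalloproteinase that activates pro-Mmp2. It gave signals of 834 in WR and 935 in Sed on chip 1, 704 and 874 on chip 2, 885 in RWR and 1027 in Sed on chip 3 and 741 and 865 on chip 4. The running pool was thus dimmer than the sedentary pool in both dyes on every chip. The log2 ratios were −0.17, −0.31, −0.21 and −0.22, and the means were −0.24 ± 0.15 in WR and −0.22 ± 0.15 in RWR, or folds of 0.847 and 0.859. Both means were under 2 errors from 0, the lowest deposited p-value was 0.13 (chip 2), and both comparisons use sedentary RNA as the denominator. With normexp background correction the means were −0.26 and −0.19. The 6 oligodendrocyte lineage markers with a named probe had medians of −0.07 in WR and −0.08 in RWR. Of these markers 4 were below 0 on both WR chips, 3 on both RWR chips, and 0 were above on both. The part of these cells in the Mmp14 values was not tested.

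Among the other metalloproteinases well above background, Mmp2, Mmp23, Mmp16 and Mmp24 had small means over each pair, and Mmp28 is given after them. Mmp2, the gelatinase that Mmp14 activates, had 0.30, −0.10, 0.27 and 0.02, with a mean of 0.14 ± 0.15 in RWR, which was 0.04 under normexp and 0.05 with no background subtracted. Mmp23 had 0.24, −0.12, 0.23 and 0.15, with a mean of 0.19 ± 0.15 in RWR. Under normexp that mean was 0.12, and with no background subtracted it was 0.11. Mmp16, another membrane-type enzyme, had 0.14, 0.03, 0.10 and −0.03 at its brighter probe and 0.30, −0.21, 0.18 and −0.04 at its second, which differed in sign on chip 2. Mmp24, a membrane-type enzyme of neurons, had 0.02, −0.07, 0.10 and 0.05 at signals from 4789 to 6111. None of these means was more than 2 errors from 0.

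In Mmp28, Mmp9 and the dimmer probe of Col23a1 the sign of the ratio turned with the dye in both pairs. Mmp28, epilysin, gave 0.49 on chip 1 and −1.12 on chip 2, then 0.51 on chip 3 and −0.91 on chip 4. In each case the channel read in Cy5 was the brighter, and the p-value was 3.39e-05 on chip 2 and 0.00098 on chip 4. The part of the ratio that stayed with the dye, here called the dye term (the ratio of the Cy5-running chip minus that of the Cy3-running chip, divided by 2, as log2 Cy5 over Cy3), was 0.81 in the WR pair and 0.71 in the RWR pair. The mean over the pair was −0.31 ± 0.19 in WR and −0.20 ± 0.18 in RWR.

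Mmp9, the gelatinase that is induced by neuronal activity and remodels the perisynaptic matrix, was measured in 10 spots per chip, of which 8 to 10 were kept. Over its spots the mean log2 ratio was 1.43 ± 0.29 (SD) on chip 1, −0.80 ± 0.29 on chip 2, 0.95 ± 0.36 on chip 3 and −0.77 ± 0.29 on chip 4. Every spot lay above 0 on chips 1 and 3 and below 0 on chips 2 and 4. The mean signal of running over sedentary was 42.1 against 15.8 on chip 1 and 19.0 against 32.8 on chip 2, so the brighter channel was Cy5 on both. On chip 1 the sedentary channel was well above background in 0 of 9 spots, and on chip 4 the running channel in 0 of 8. The mean of the pair was 0.32 ± 0.29 in WR and 0.09 ± 0.25 in RWR, with dye terms of 1.12 and 0.86. With normexp background correction the WR mean changed sign to −0.10 and the RWR mean was 0.05. With no background subtracted these means were 0.04 and 0.03.

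**Figure D3:**
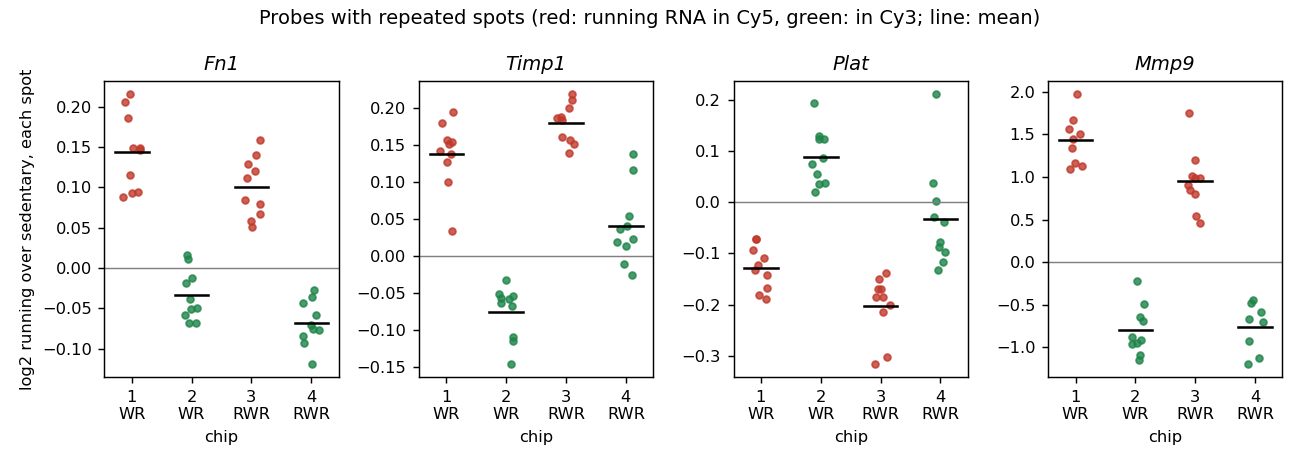
Log2 ratio of running over sedentary (y axis, a different scale in each panel) of every kept spot of the 4 member probes with 10 spots, by chip (x axis), in red where running RNA was in Cy5 and green where it was in Cy3. Black lines are the means, which for Mmp9 run 1.43, −0.80, 0.95 and −0.77 from chip 1 to chip 4, with all spots of a chip on the same side of 0.

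The 5 metalloproteinases of the chromosome 8 cluster were at or near the detection limit. Of the 8 measurements of each probe, Mmp3 and Mmp8 were well above background in 0, Mmp10 in 1, and Mmp12 and Mmp7 in 2. These were the 5 member probes with the fewest such measurements, and 21.0% of all probes were well above background in 2 or fewer. Outside the cluster, Mmp2, Mmp14, Mmp16, Mmp23, Mmp24 and Mmp28 were well above background in all 8 measurements, and Mmp9 and Mmp11 in 5. Mmp11, stromelysin 3, had 0.39, −0.35, 0.57 and −0.15, higher where running RNA was in Cy5.

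The processed signals in the cluster ranged from 2.48 to 40.2. Mmp8, neutrophil collagenase, gave 2.48 to 5.85, and its log2 ratio was set to 0 on 3 chips. Mmp3, stromelysin, gave 17.4 in WR and 21.2 in Sed on chip 1 and 16.9 and 6.65 on chip 2, with log2 ratios of −0.29, 1.34, −1.35 and 1.15 over the 4 chips. Mmp7, matrilysin, gave −0.97, 1.60, −0.97 and 2.97, and Mmp12, macrophage elastase, gave −0.06, 2.14, −0.58 and 0.10. Mmp10 gave −0.16, 0.92, −0.11 and −1.03. The largest single-chip ratios of any member, 2.97 and 2.14, were those of Mmp7 on chip 4 and Mmp12 on chip 2, where the sedentary signal was not well above background. The ratios of these genes describe single chips and no fold is read from them, since the chips of each pair did not keep a side or the signals were not well above background. The promoters of Mmp3, Mmp7, Mmp10 and Mmp12 printed above are those of genes with 0 to 2 of 8 measurements well above background.

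The inhibitors had small means over each pair, within the error. Timp2, the inhibitor that helps Mmp14 to activate Mmp2, had signals from 11855 to 15575 and ratios of −0.19, 0.16, −0.13 and 0.15, with a sign that turned with the dye. Timp3, bound to the matrix, had 0.41 and −0.33 in WR and 0.22 and 0.04 in RWR. Timp1 was measured in 10 spots and gave 0.14 ± 0.05 on chip 1, −0.08 ± 0.04 on chip 2, 0.18 ± 0.03 on chip 3 and 0.04 ± 0.05 on chip 4 (SD over spots). Both Timp1 and Timp3 were above 0 on both RWR chips, with means of 0.11 ± 0.15 and 0.13 ± 0.16.

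The ADAMTS aggrecanases were partly below detection. Adamts5 and Adamts1, which cut aggrecan and brevican, were well above background in 5 and 3 of the 8 measurements. Adamts5 had 0.27, −0.18, 0.02 and −0.18, and Adamts1 had −0.49, 0.39, −0.28 and 0.23. Adamts7 was well above background throughout, with −0.18, 0.06, −0.09 and 0.20.

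Plat, tissue plasminogen activator, was measured in 10 spots and was below 0 on both RWR chips. Its spot means were −0.13 ± 0.04 on chip 1, 0.09 ± 0.05 on chip 2, −0.20 ± 0.06 on chip 3 and −0.03 ± 0.10 on chip 4. All 10 spots were below 0 on chips 1 and 3, all 10 above 0 on chip 2 and 7 of 10 below on chip 4. The mean in RWR was −0.12 ± 0.15, within the error of the chips, and it was −0.08 with no background subtracted.

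The dye term was larger than the mean ratio in 31 of the 41 member genes in WR (75.6%) and in 26 of 41 in RWR (63.4%), near the 67.7% and 66.4% of all named genes. Across the 48 member probes the turned ratios of chips 1 and 2 correlated at r = −0.60, and those of chips 3 and 4 at r = −0.73, where all probes gave −0.76 and −0.69. Over the 35 probes well above background on all chips they were −0.66 and −0.46. With the same dye on the running pool, chips 1 and 3 correlated at 0.83 over the members and 0.71 over all probes, and chips 2 and 4 at 0.60 and 0.70, with a common sedentary pool, dye and slide. The dye terms of the WR pair and of the RWR pair correlated at 0.83 over the 48 probes and at 0.91 over the 35 well above background on all chips. These correlations are across probes on 4 chips and carry no p-value.

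**Figure D4:**
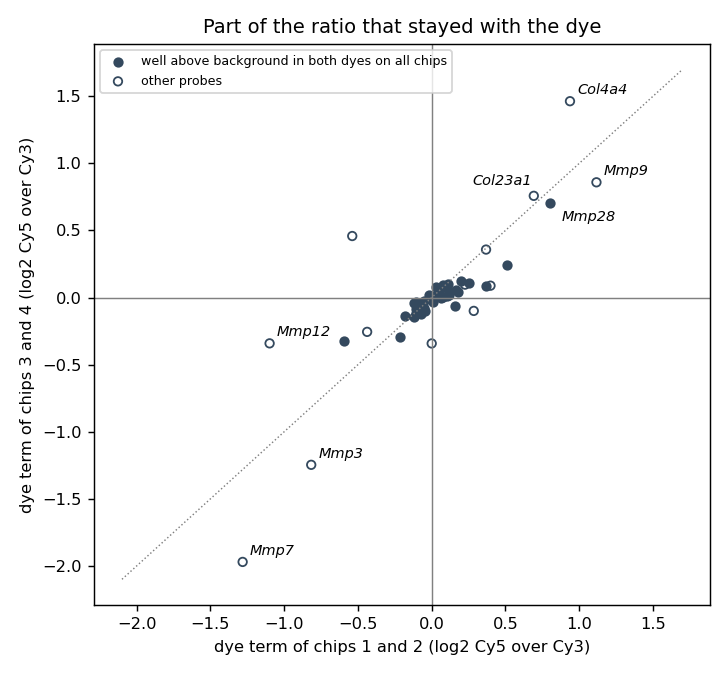
Dye term (the difference of the turned log2 ratios of a pair divided by 2, as log2 Cy5 over Cy3) of the 48 member probes in the WR pair (x axis) and in the RWR pair (y axis). Filled points are well above background in all 8 measurements, open points are not, and the dotted line marks equal values. Col4a4, Mmp9, Mmp28 and the dimmer Col23a1 probe lie at the upper right and Mmp7 and Mmp3 at the lower left, while most other members lie near 0.

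The deposited p-value was under 0.01 in 1, 2, 1 and 3 of the 48 member probes on chips 1 to 4, beside 3.92%, 7.82%, 6.91% and 6.28% of all probes. They were Mmp9 on chips 1 and 3, Mmp28 and the dimmer Col23a1 probe on chips 2 and 4, and Mmp7 on chip 4. In each of them the ratio had the opposite sign on the other chip of the pair. The same probes were those past the cutoffs with that p-value when a chip was taken alone, beside 3.92%, 7.81%, 6.89% and 6.27% of all probes. By the series matrix values with no p-value, 0 members passed on both chips in WR (background 0.549%) and 1 in RWR (Mmp8, background 1.54%), a probe that was well above background in 0 of the 8 measurements.

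Of the receptors and enzymes that act with these genes 0 were called, beside 0.0317% of all probes in WR and 0.0585% in RWR, shares at which a list of this size would hold few or no calls. Of 22 listed matrix receptors and surface proteoglycans 20 had a named probe, 19 of them well above background. The median over the 20 was 0.04 in WR and 0.01 in RWR. That list also took in Itgb3bp, whose symbol starts like an integrin's although it is none. Of 36 matrix enzymes and inhibitors 22 had a named probe, with a median over the 22 of −0.0037 in WR and −0.02 in RWR. Cd44, the hyaluronan receptor, chosen after its values had been seen, was below 0 on all 4 chips, at −0.38, −0.29, −0.31 and −0.29. How many of all probes were below 0 on all 4 chips was not counted, and sedentary RNA is the denominator in both comparisons.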

How the data were processed

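Hippocampal RNA was measured on 4 two-colour chips of 1 slide. The authors extracted the scans with Agilent Feature Extraction 11.0.1.1 (background subtraction and dye normalization) and deposited, per spot, the processed intensity of both dyes, the log10 ratio of Cy5 over Cy3 with its error, the p-value of the error model of a chip, and flags for background and outliers. The deposited series matrix holds the log10 ratio of the same processed signals (Cy5 over Cy3) without a turn for the swap or centring (column medians 0.0102, 0.0064, 0.0055 and 0.0009), and was used as an alternative.

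Control spots and 118 to 140 outlier spots per chip were left out. The median signal was 62.2 to 78.3, 67.5% to 82.5% of spots were well above background and 0 were saturated. Ratios were turned to running over sedentary on the log2 scale, spots of a probe averaged, and probes named by accession through the RefSeq table of GRCr8, used for names only for the probes (10768 probes of 8899 genes). The members and lists were chosen with earlier results of these data known. Named genes were the listed members, those called, the 5 highest and 5 lowest means among members above background with the same sign on both chips, and a fixed set of proteases and inhibitors (Timp4, Adamts4, Col4a3 and Lama4 had no named probe). Others are given to account for every member. The alternatives were the p-value filter, cutoffs on the mean, equal cutoffs, normexp (offset 50) or no background correction with loess (limma 3.58.1, R 4.3.3), centring, filters on dim probes, the series matrix, medians over a gene's probes, and single chips.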

Additional observations from a re-analysis of the deposited data

Results flagged for a closer look

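In 3 members both WR chips lay on one side of the sedentary pool and both RWR chips on the other. The mean log2 ratio of RWR exceeded that of WR by 0.15 in Col1a2, by 0.22 in Col3a1 and by 0.17 in Dcn, the genes of type I and type III collagen and of decorin. The error of such a difference from the chips was 0.20, 0.22 and 0.20. The difference was not tested, since each running group was 1 pool. The differences were 0.13, 0.07 and 0.18 with normexp background correction and 0.14, 0.12 and 0.18 without background correction. The second Col1a2 probe gave 0.10 and was on both sides of 0 in RWR. With running RNA in Cy5 the difference of chip 3 and chip 1 was 0.18, 0.30 and 0.13, and with it in Cy3 the difference of chip 4 and chip 2 was 0.13, 0.15 and 0.22. Col11a2, which was on both sides of 0 in RWR, had a difference of 0.23. Of the plexus markers well above background, Ttr had means of −0.86 in WR and 0.12 in RWR, the widest difference among them. Folr1 had −0.21 and 0.06, and Enpp2, the brightest, had −0.06 and −0.02. Aqp1, well above background in the RWR pair only, had 0.04 and 0.13. The fibroblast markers well above background had medians of −0.08 in WR (6 genes) and −0.10 in RWR (7 genes), which are not the same set. Their means in WR and RWR were −0.14 and −0.04 for Igf2, −0.04 and 0.01 for Mgp and −0.09 and 0.06 for Fmod, the brightest of them. Slc6a13 had −0.19 and −0.10, while Igfbp2 had −0.07 and −0.13 and Slc22a8 had 0.10 and −0.12. The part of these cells in the differences was not tested.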

How the results depend on the processing

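The count of called member probes was 0 in both comparisons under the main setting. In WR it was 1 with cutoffs on the pair's mean and no p-value (Mmp12) and 1 to 2 with a chip left out (Mmp9, or Mmp28 and Col23a1, beside 3.92% and 7.81% of all probes). In RWR it was 2 with the cutoffs on the mean and p under 0.01 on 1 chip (Col23a1 and Mmp7), 3 on the mean with no p-value (also Mmp10), 1 from the series matrix (Mmp8, beside 1.54% of all probes) and 1 to 3 with a chip left out (beside 6.89% and 6.27%). The median of the member genes in WR was 0.0009 with normexp, 0.0036 with no background correction, −0.0071 for probes above background in both dyes and −0.0283 to 0.0157 with a chip left out. In RWR it was 0.0321 with normexp and 0.0185 to 0.0405 with a chip left out. Among the values of the named genes, 33 of 108 changed sign with a chip left out and 9 of 270 under the other alternatives, where 13 moved by more than the spread of the pair. Replicate numbers name the dye orientation of a pair. No paired analysis was possible because each comparison has 1 pool per group and comes from no test. The GeneName column was not used here, so naming by it was not run. The number of chips, the dye term and signals near background limit the precision.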
